A study of Mus musculus with 15 samples.

Results

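Carbon tetrachloride (CCl4) was compared with mineral oil, its vehicle, in hepatocytes of transgenic ΔEGFR mice. The comparison takes 8 of the 15 libraries of the series: 4 of ΔEGFR hepatocytes with mineral oil and 4 with CCl4, chosen by the labels' genotype and treatment alone. The other 7 libraries are WT hepatocytes, 4 with mineral oil and 3 with CCl4, and enter as part of the estimate of spread and for the test of a difference between genotypes. All libraries were made from primary mouse hepatocytes, RNA extracted with RNA STAT 60 and a stranded mRNA kit. The labels give no dose, duration, sex, age or promoter of the transgene, and do not say whether each library is a separate animal, so each p-value reflects how far libraries differ, which may be technical.

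ΔEGFR is known from published work as a shortened EGF receptor without its kinase domain, expressed in hepatocytes to block signalling by the normal receptor. CCl4 is toxic once cytochrome P450 enzymes have split it into radicals, and it is widely given to mice to injure the liver and cause fibrosis. Hepatocytes make most plasma proteins, conjugate drugs and steroids, and run the methionine, tryptophan and fatty acid pathways described here. Phagocytes that enter an injured liver are known for their lysosomes, lipid handling and receptors for dying cells.

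Of 17975 genes tested with edgeR's quasi-likelihood test, 746 had a Benjamini-Hochberg adjusted p under 0.05 and are referred to as called. That is 4.15% of the genes tested. Of these, 319 were higher with CCl4 (1.77% of all tested) and 427 were lower (2.38%). The 4 libraries of each treatment did not overlap for 721 of the 746, and over all genes tested the groups did not overlap for 21.6%, 12.3% higher and 9.32% lower. The 2 directions differed in kind. Called genes that rose were mostly scarce, with a median of 1.61 CPM (counts relative to library size, scaled with TMM factors) over the 8 libraries and a median log2 fold change of 2.91. Those that fell were abundant, with a median of 52.9 CPM, and changed less, by a median log2 fold change of -1.23. Over all genes tested the median level was 7.57 CPM and the median log2 fold change was -0.02. The plot of fold change against adjusted p shows both arms.

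**Figure D1:**
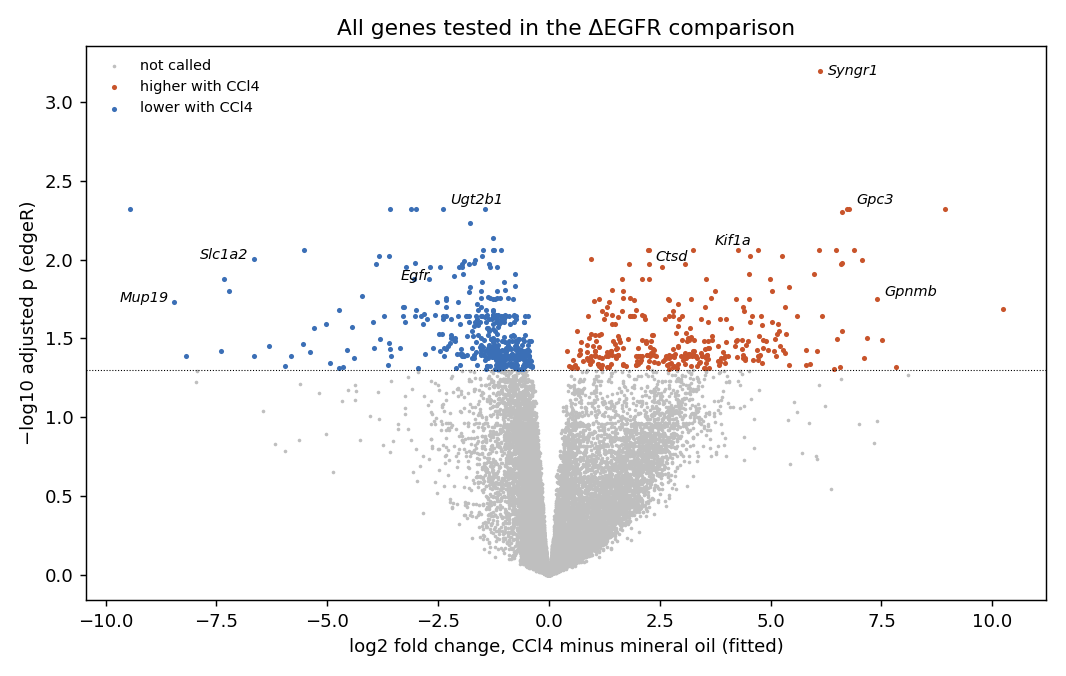
Each point is 1 of the 17975 genes tested, with its fitted log2 fold change (CCl4 minus mineral oil, ΔEGFR libraries) on the x axis and −log10 of its edgeR adjusted p on the y axis; the dotted line marks 0.05. The 319 genes called higher spread out to larger fold changes than most of the 427 called lower, and Syngr1 has the lowest adjusted p, 0.000638.

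Total counts ran from 98626975 to 140610507 in the mineral oil libraries and from 51732147 to 121078389 with CCl4. Libraries differed in more than treatment. The first principal component of the 8 libraries held 58.1% of the variance, with the CCl4 libraries between 51.7 and 93.8 and the mineral oil libraries between -180.9 and -12.8. Mineral oil library 4 lay at the low end. It also had the lowest summed level of macrophage markers, 125 CPM against 702 to 1621 CPM in the other mineral oil libraries and 4189 to 7967 CPM with CCl4. All 19 macrophage markers had positive log2 fold changes (median 2.46), and 2 were called, Gpnmb and Trem2. Hepatocyte markers summed to 129611 to 226638 CPM with mineral oil and 74421 to 166039 CPM with CCl4, so these groups overlapped. Alb alone averaged 77136 CPM of a mean sum of 165871 CPM with mineral oil. Of the 16 hepatocyte markers, 15 had negative log2 fold changes (median -0.86), and 2 were called, Cps1 and Ass1. Without overlap, 7 of the 16 were lower, against 9.32% of all genes tested. At an unadjusted p under 0.05, 9 hepatocyte markers were lower and 13 macrophage markers higher, and DESeq2 called 9 and 11. Over all genes tested these shares were 24.7% and 13.7%. In bulk RNA, more cells of a type and more RNA per cell cannot be told apart.

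**Figure D2:**
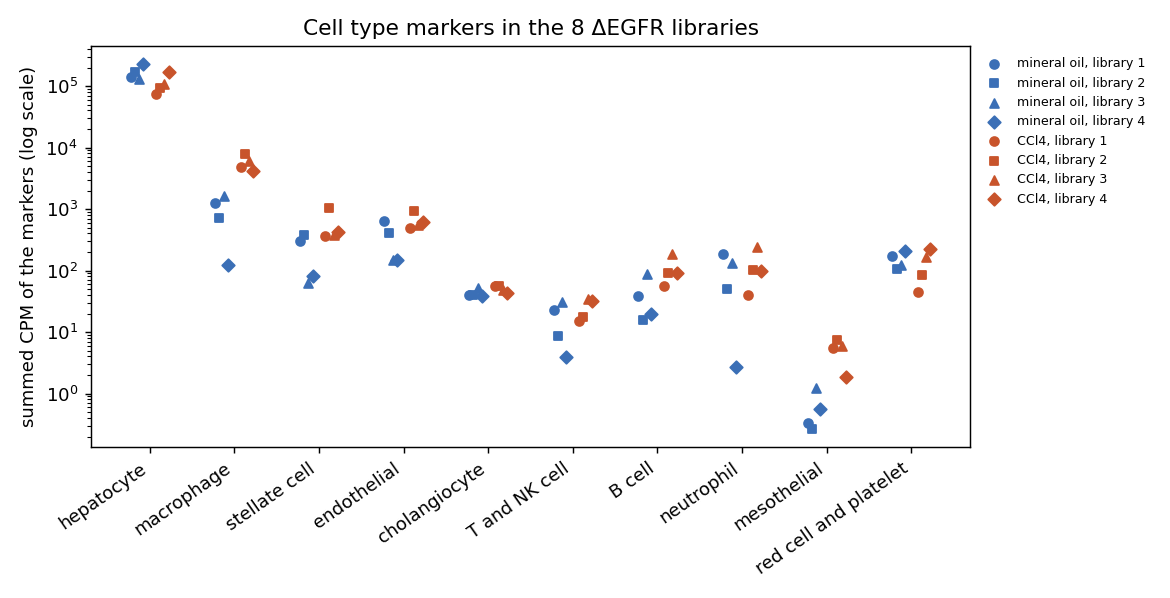
Summed CPM of the markers of each cell type (y axis, log scale) in each of the 8 ΔEGFR libraries, with 1 symbol per library number and colour for treatment. Macrophage and mesothelial sums of the 2 treatments do not overlap, while those of T and NK cells, neutrophils and red cells do, and mineral oil library 4 is the lowest for macrophages, T and NK cells and neutrophils.

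The number of calls moved with single libraries. When 1 of the 8 libraries was left out, between 75 (without CCl4 library 2) and 972 (without mineral oil library 3) genes were called. Of the 746, 68 remained called in all 8 such fits, 31 higher and 37 lower. Leaving out mineral oil library 4 left 94 called genes, 93 of them among the 746. Without CCl4 library 1 there were 101, and without CCl4 library 3 there were 129. All 8 fits kept WT mineral oil library 1, which is part of the shared estimate of spread. Leaving that library out, an alternative chosen after the data were seen, gave 2145 called genes, 745 of them among the 746. Statements that a gene was not called or lost its call thus depend on that library too.

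**Figure D3:**
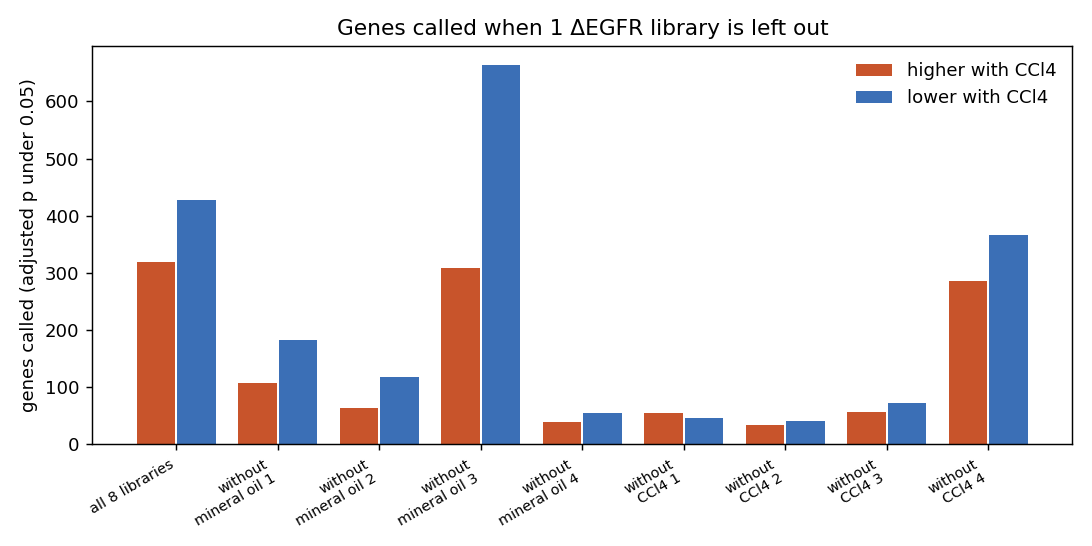
Number of genes called higher or lower with CCl4 (y axis, adjusted p under 0.05) with all 8 ΔEGFR libraries and with each of them left out. Without CCl4 library 2 there were 34 higher and 41 lower, and without mineral oil library 3 there were 308 higher and 664 lower.

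Egfr, the mouse gene of the receptor the transgene is named for, fell in the CCl4 libraries. It measured 970, 1118, 492 and 1707 CPM with mineral oil and 108, 182, 269 and 220 CPM with CCl4. Every CCl4 library was below every mineral oil library. The log2 fold change was -2.46 ± 0.40 (standard error), a 5.51-fold decrease, with an adjusted p of 0.0112. Leaving out any 1 library gave adjusted p values between 0.0111 and 0.0499. The labels do not say which part or species of EGFR the transgene carries, so this level does not check the genotype.

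The lowest adjusted p of all belonged to Syngr1, which encodes synaptogyrin-1, a membrane protein of small secretory vesicles best known from nerve terminals. Its level was 0.154, 0.178, 0.152 and 0.0522 CPM with mineral oil and 7.32, 12.6, 10.6 and 7.78 CPM with CCl4. The groups were far apart, with a log2 fold change of 6.12 ± 0.54 (69.8-fold) and an adjusted p of 0.000638. It remained called with each library left out, at an adjusted p of 0.00798 or less. Syngr1, like the others of the 68, was singled out after these values were seen.

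Of the called genes whose log2 CPM averaged 2 or more and whose groups did not overlap, the 15 with the largest increases were led by Gpnmb, a lysosomal membrane glycoprotein of phagocytes. Gpnmb measured 7.80, 11.5, 8.69 and 0.378 CPM with mineral oil and 640, 1542, 1483 and 1139 CPM with CCl4, a log2 fold change of 7.40 ± 1.35 (adjusted p = 0.0178). Trem2, a receptor of phagocytes for lipids and dying cells, measured 5.56, 2.42, 4.32 and 0.143 CPM against 61.5, 98.5, 72.5 and 47.3 CPM, a log2 fold change of 4.49 ± 1.0 (adjusted p = 0.0327). C3ar1, the receptor of the complement fragment C3a, measured 6.04, 3.62, 6.47 and 0.170 CPM against 37.2, 92.6, 69.7 and 40.0 CPM, a log2 fold change of 3.87 ± 0.98 (adjusted p = 0.0449). All of these were lowest in mineral oil library 4, the library with the fewest macrophage marker counts. No mineral oil library reached the lowest CCl4 library for any of them. Gpnmb lost its call only without CCl4 library 2 (adjusted p = 0.0530), Trem2 stayed called in 2 of the 8 fits with a library left out, and C3ar1 in none of them.

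Atp6v0d2, a subunit of the proton pump that acidifies lysosomes, did not follow mineral oil library 4. It measured 3.36, 5.21, 3.87 and 3.57 CPM with mineral oil and 38.5, 62.1, 64.1 and 51.5 CPM with CCl4, a log2 fold change of 3.75 ± 0.66 (adjusted p = 0.0158). The mineral oil libraries lay within a narrow band. Without mineral oil library 4 the adjusted p was 0.0604, and in the other 7 fits it stayed called.

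The remaining 11 of these 15 genes rose by log2 fold changes between 3.13 and 4.75. They included the organic anion exporter Abcc4 (4.72 ± 1.16), the unconventional myosin Myo5a (4.75 ± 1.16), the adenylate cyclase Adcy3 (4.24 ± 0.93) and the sugar phosphate exchanger Slc37a2 (3.99 ± 0.89). Emp1, an epithelial membrane protein (3.97 ± 1.01), the extracellular glutathione peroxidase Gpx3 (3.81 ± 0.87) and the filamin-binding protein Fblim1 (3.59 ± 0.90) followed. Annexin Anxa3 (3.50 ± 0.78), the TGF-beta binding protein Ltbp3 (3.15 ± 0.70), the mannosidase Man1c1 (3.13 ± 0.75) and the sialyltransferase St6galnac4 (3.13 ± 0.68) completed the set. Adjusted p values of these 11 ran from 0.0314 (St6galnac4) to 0.0454 (Emp1), and each was called in at most 2 of the 8 fits with a library left out. Abcc4 varied most within the CCl4 group, at 136, 29.0, 24 and 6.71 CPM.

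Promoters of the called genes were searched because these genes moved together. RefSeq windows (GRCm38.p6, 250 bases before to 50 after the annotated start) were matched by symbol for 233 genes called higher, 304 called lower and 12068 tested. Of 13 motifs, the antioxidant response element core TGACNNNGC, searched on both strands, differed most between the directions. It stood in 18.9% of windows of genes called higher, 9.2% of those called lower and 14.5% of all. The next largest difference ran the other way: the NFY box CCAAT stood in 33.9%, 42.8% and 38.7%. The AP-1 site TGAGTCA, also searched on both strands, stood in 7.7%, 4.6% and 4.1%, and shared bases with the antioxidant core in 52 of the 12068 windows. Windows of called genes also held fewer CG pairs, a median of 13 for those higher and 12 for those lower against 19 for all, and no test was made.

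Of the 30 genes with the largest changes, 13 increases and 11 decreases had a window. The antioxidant core stood in 3 (23.1%) and 1 (9.1%) of these, against 14.5% of all windows. For these 4 genes the 250 bases before the start are printed to show where it lies. Capitals mark the match, on the GRCm38.p6 build, 5′ to 3′ on the strand of the gene. Abcc4 lies at chr14:118706220-118706469 (minus strand) with the match beginning 25 bases before the start. Emp1 is at chr6:135362681-135362930 (plus strand), with the match 182 bases before it. For Fblim1, at chr4:141606053-141606302 (minus strand), the distance is 60 bases. Mup21, which fell, is at chr4:62150842-62151091 (minus strand), with the match 63 bases before its start.
Abcc4: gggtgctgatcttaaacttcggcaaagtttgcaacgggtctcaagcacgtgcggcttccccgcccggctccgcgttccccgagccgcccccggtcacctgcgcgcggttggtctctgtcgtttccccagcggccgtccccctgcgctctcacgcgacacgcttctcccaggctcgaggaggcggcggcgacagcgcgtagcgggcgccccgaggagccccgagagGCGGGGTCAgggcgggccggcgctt
Emp1: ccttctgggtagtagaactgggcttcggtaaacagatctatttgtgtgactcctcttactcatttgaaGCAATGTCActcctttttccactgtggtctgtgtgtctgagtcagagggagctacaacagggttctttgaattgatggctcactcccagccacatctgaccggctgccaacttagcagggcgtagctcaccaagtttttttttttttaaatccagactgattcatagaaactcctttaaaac
Fblim1: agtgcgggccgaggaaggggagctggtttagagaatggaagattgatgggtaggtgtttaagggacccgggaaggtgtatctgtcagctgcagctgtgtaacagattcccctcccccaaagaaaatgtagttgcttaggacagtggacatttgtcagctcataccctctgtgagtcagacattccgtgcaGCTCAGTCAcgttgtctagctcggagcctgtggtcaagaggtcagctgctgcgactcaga
Mup21: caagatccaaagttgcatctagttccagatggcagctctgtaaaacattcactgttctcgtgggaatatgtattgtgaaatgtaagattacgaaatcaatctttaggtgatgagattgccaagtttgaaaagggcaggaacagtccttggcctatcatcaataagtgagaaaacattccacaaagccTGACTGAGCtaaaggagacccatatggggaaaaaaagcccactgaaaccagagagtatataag
AP-1 letters were counted in the same genes after the windows had been seen. They stood in 6 of the 13 windows matched among the 15 largest increases (Gpnmb, Slc37a2, Emp1, C3ar1, Fblim1 and Ltbp3) and in none of the 11 matched among the 15 largest decreases. A match of letters is a description and not a measured site.

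Lysosomal hydrolases had the largest share called higher of 108 lists, cell type markers aside. The list holds enzymes that break down proteins, glycans and sphingolipids inside lysosomes. It also holds lysosomal proteins that are no hydrolases, such as Psap, Npc2 and Lamp1. Of 57 tested, 14 were called higher and none lower (24.6% called against 4.15% of all genes), and the median log2 fold change was 0.48 above that of all genes. Ctsd, cathepsin D, the main aspartic protease, measured 489, 478, 429 and 335 CPM with mineral oil and 1661, 2591, 2256 and 1743 CPM with CCl4. Its groups were well separated, with a log2 fold change of 2.25 ± 0.36 (adjusted p = 0.0107). Galc, which removes galactose from sphingolipids, measured 4.73, 5.30, 5.43 and 5.39 CPM against 16, 29.6, 25 and 17.9 CPM, a log2 fold change of 2.09 ± 0.35 (adjusted p = 0.0133). For both, mineral oil library 4 lay near the other mineral oil libraries and every CCl4 library was higher. Ctsd and Galc remained called with any 1 library left out.

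Ctsk, cathepsin K, a collagen-degrading protease of osteoclasts and some macrophages, measured 0.359, 0.202, 0.402 and 0.235 CPM against 1.53, 5.74, 6.99 and 8.12 CPM. Its log2 fold change was 4.21 ± 0.77 (adjusted p = 0.0178). Other called members included Psap, Gusb, Ctsb, Hexa, Npc2, Dnase2a, Asah1, Fuca2 and Gla. Not all lysosomal genes moved. The membrane protein Lamp1 (log2 fold change -0.28 ± 0.18, adjusted p = 0.345) and the protease Ctsl (0.16 ± 0.22, adjusted p = 0.681) have the highest mean CPM of the members not called. The E-box CACGTG, which factors of the lysosomal gene programme are known to bind, stood in 21.3% of the 47 promoter windows matched for this list and 9.7% of all 12068. The antioxidant core stood in the same 21.3% of them, and the E-box in 7.3% of windows of genes called higher and 7.2% of those called lower. Between 3 (without CCl4 library 2) and 14 (without CCl4 library 4) members were called when a library was left out. Macrophage markers rose over the same libraries, from a summed 125 to 1621 CPM to 4189 to 7967 CPM, and their part in the lysosomal result was not tested.

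Lists related to phagocytes and lysosomes gave smaller shares. Over all genes tested 4.15% were called, 1.77% higher and 2.38% lower. The share called was 19.5% for sphingolipid and ganglioside genes, 8.2% for Fc, SIGLEC, CD300 and paired receptors and 13.2% for galectins and C-type lectins. The 2 calls among 20 proton pump subunits are too few to read as a result about that list. Of 20 proton pump subunits, 2 were called higher (Atp6v0d2 and Atp6v1b2, the latter at 1.43 ± 0.30, adjusted p = 0.0256) and none lower. Of 41 sphingolipid and ganglioside genes, 6 were called higher, among them Galc, Asah1 and Gla, which are also in the hydrolase list, and 2 lower. Among 61 Fc, SIGLEC, CD300 and paired receptors, 4 were called higher (Treml1, Siglec15, Trem2 and Fcrls) and Ly6a, a lymphocyte and stem cell surface antigen, was called lower (-2.85 ± 0.59, adjusted p = 0.0256). Siglec15 had 1 count with mineral oil and 50 with CCl4, and could pass the filter on low counts only through other groups. The inhibitory receptor Sirpa, an abundant member not called, had a log2 fold change of 2.74 ± 0.76 (adjusted p = 0.0590). Of 38 galectins and C-type lectins, 3 were called higher and 2 lower, and the galectin Lgals3 was not called (3.73 ± 1.14, adjusted p = 0.0791). These receptor and lectin lists had medians 1.70 and 1.75 above that of all genes, and mineral oil library 4 was the lowest of all 8 for Sirpa (8.24 CPM) and Lgals3 (0.796 CPM).

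**Figure D4:**
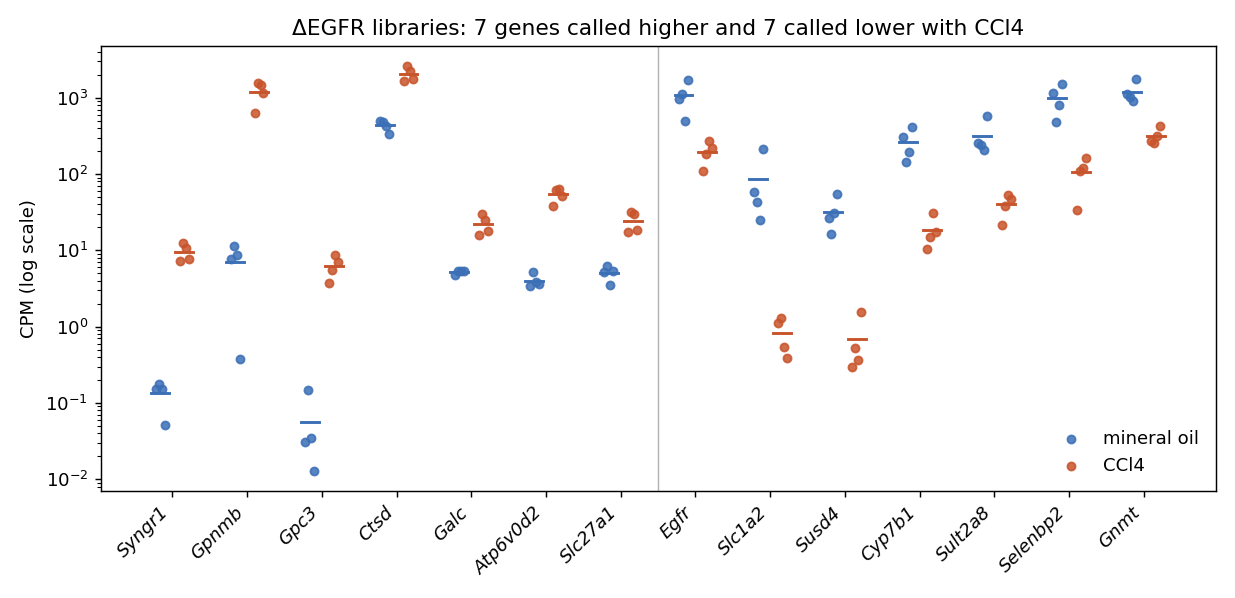
CPM (y axis, log scale) of 14 called genes in the 8 ΔEGFR libraries; each point is 1 library and each line the mean of 4. The 7 genes on the left are higher and the 7 on the right lower with CCl4, with no overlap between treatments in any of them; Gpnmb and Gpc3 spread widely over the mineral oil libraries.

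Called genes with few reads were mostly on the higher side. Of the 319 called higher, 146 averaged under 1 CPM over the 8 libraries, against 36 of the 427 called lower. For 40 of the genes called higher, the 4 mineral oil libraries together held 3 counts or fewer. For such genes the ratio of summed counts is given with its exact 95% interval, which covers counting error only. Htr2b, the serotonin 2B receptor, had 2 counts with mineral oil and 1162 with CCl4, at 1.09, 4.47, 4.12 and 1.42 CPM. This is a ratio of 548 (interval 151 to 4526, adjusted p = 0.0048). Krt20, a keratin of gut and bladder lining, had 1 and 156 counts (ratio 147, interval 26 to 5843, adjusted p = 0.00499). Prss46, a trypsin-like protease known from testis, had 1 and 157 (ratio 148, interval 26.2 to 5880, adjusted p = 0.0107). St18, a zinc finger transcription factor of brain and pancreas, had 1 and 144 (ratio 136, interval 24 to 5397, adjusted p = 0.00874). All 4 CCl4 libraries held reads of each of these genes, and all remained called with any 1 library left out. They were singled out after their values were seen. Genes with 3 mineral oil counts or fewer could pass the filter on low counts only through other groups. Siglec15, Lgals7, Fmod, Ephb1, Dio2 and Fat3, counted as called members of lists in this report, are among them. Reads in the CCl4 libraries are thus partly a condition of being tested and no separate support. Of 43 germ cell and sperm genes, none was called by edgeR, 11 had an unadjusted p under 0.05 and DESeq2 called 5.

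Of 58 synaptic and neuronal receptor genes, 2 were called higher and none lower, 3.4% against 4.15% of all genes. Kif1a and Ptprn, which belong to other lists or none, were chosen after their values were seen. Kif1a, a motor that carries synaptic vesicle precursors along axons, measured 0.0821, 0.121, 0.0970 and 0.0652 CPM with mineral oil and 2.44, 2.48, 3.13 and 1.77 CPM with CCl4. The groups did not overlap, and the log2 fold change was 4.72 ± 0.67 (adjusted p = 0.00874). Ptprn, a protein of the dense core granules of endocrine cells, measured 0.0718, 0.0566, 0.0208 and 0.0913 CPM against 1.97, 2.20, 1.13 and 0.224 CPM. CCl4 library 4 was the lowest of its group, and the log2 fold change was 4.53 ± 0.69 (adjusted p = 0.00944). Of 41 peptide hormones and granins, 4 were called higher and none lower: Adm2, a vasodilator peptide (5.04 ± 0.89, adjusted p = 0.0158), Gdf3, a TGF-beta family ligand (4.0 ± 0.82, adjusted p = 0.0239), Npy, neuropeptide Y (3.58 ± 0.74, adjusted p = 0.0250), and Angptl7 (3.52 ± 0.82, adjusted p = 0.0367). Of 63 orphan and adhesion G protein-coupled receptors, Gpr176, Gpr157, Adgrg6 and Gprc5a were called higher and none lower. The shares called were 6.3% of these receptors and 9.8% of the peptide hormones and granins, beside 4.15% of all genes. Gpr176 measured 0.0205, 0, 0.0624 and 0.0522 CPM against 0.425, 1.51, 1.78 and 0.727 CPM (4.99 ± 0.85, adjusted p = 0.0133).

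Odorant receptors gave few reads. Of 18 olfactory, vomeronasal and taste receptors that passed the filter, Olfr110 and Olfr111 were called higher and Vmn2r57 lower. That is 16.7%, against 4.15% of all genes. Olfr110 had no count in any mineral oil library and 32 in the CCl4 libraries, which is at least 10.1-fold higher against a floor of 3 counts over the group (adjusted p = 0.0456). With no mineral oil count, Olfr110 too could pass the filter only through other groups. Olfr111 measured 0.0103, 0.0162, 0.0416 and 0 CPM against 0.165, 0.647, 0.471 and 0.0879 CPM, a log2 fold change of 4.10 ± 0.87 (adjusted p = 0.0272). These genes and H2-M2, a class I histocompatibility gene (3.89 ± 0.97, adjusted p = 0.0422), are neighbours on chromosome 17. Reads of these 3 genes could not be assigned by strand from the sources used here, and the odorant genes belong to a family of close copies, so their values are uncertain.

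Lists of matrix and cell surface genes held a few called members each. The shares called were 7.0% (glycosaminoglycan), 6.7% (cadherin) and 8.7% (laminin), not far from the 4.15% of all genes. Gpc3, a heparan sulfate proteoglycan of fetal liver, measured 0.0308, 0.146, 0.0346 and 0.0130 CPM with mineral oil and 3.69, 5.50, 8.74 and 7.05 CPM with CCl4. The log2 fold change was 6.73 ± 0.87 (adjusted p = 0.0048), and every CCl4 library was above every mineral oil library. Of 57 glycosaminoglycan enzymes and proteoglycans, 4 were called higher and none lower. Sulf2 (1.59 ± 0.35, adjusted p = 0.0317) and Sulf1 (2.7 ± 0.69, adjusted p = 0.0456), which trim sulfate from heparan chains, were called with Gpc3, and so was the collagen-binding proteoglycan Fmod. Of 75 genes listed with the cadherins and protocadherins, Fat3, Pkp1, Cdh11 and Cdh3 were called higher and Cdh15, muscle cadherin, lower. Pkp1 encodes a plakophilin, which is no cadherin. Fat3 had 3 and 383 counts, a ratio of 120 (interval 40.9 to 586, adjusted p = 0.00874). Of the 23 laminins and basement membrane genes, Lamc3 (2.91 ± 0.61, adjusted p = 0.0265) and Col4a6 (3.58 ± 0.82, adjusted p = 0.0362) were called higher.

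Mesothelial markers, genes of the sheet of cells that covers the liver, had a higher share called than any other marker list. Of 6 tested, 5 were called higher, 83.3% against 4.15% of all genes. Their sum was 0.328, 0.267, 1.21 and 0.561 CPM with mineral oil and 5.56, 7.32, 6.02 and 1.85 CPM with CCl4. Upk3b, a uroplakin, measured 0.0821, 0.0728, 0.381 and 0.0913 CPM against 1.84, 2.03, 1.85 and 0.592 CPM (3.30 ± 0.80, adjusted p = 0.0406). Msln, mesothelin, had a log2 fold change of 3.06 ± 0.75 (adjusted p = 0.0413), and Wt1, a transcription factor of mesothelium, 2.83 ± 0.73 (adjusted p = 0.0473). Muc16, a mucin of the same lining, was called in the list of digestive enzymes and mucins (2.91 ± 0.74, adjusted p = 0.0460). Without CCl4 library 1 no mesothelial marker was called, and without mineral oil library 3 all 6 were. The fibrillar collagens Col1a1 (2.60 ± 0.81, adjusted p = 0.0817), Col1a2 (2.22 ± 0.63, adjusted p = 0.0635) and Col3a1 (2.49 ± 0.79, adjusted p = 0.0887), markers of stellate cells, did not pass the test. No stellate cell, endothelial or cholangiocyte marker was called, of 18, 18 and 10 tested. At an unadjusted p under 0.05 these lists had 5, 2 and 5 members, all higher, and DESeq2 called 5, 2 and 4. Summed stellate cell markers were 62.8 to 374 CPM with mineral oil and 363 to 1043 CPM with CCl4, and the part of any of these cells in the matrix genes was not tested.

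Among the 108 lists, the major urinary proteins had the largest share called lower. These are lipocalins that the liver secretes for scent signalling. Their list, with other lipocalin carriers, had 17 of 34 tested members called lower and none higher (50% against 4.15%), and its median log2 fold change relative to that of all genes was -3.33. Mup20, which also signals to other mice, measured 10271, 12882, 8467 and 6413 CPM with mineral oil and 1120, 1566, 3431 and 2172 CPM with CCl4, a log2 fold change of -2.20 ± 0.48 (adjusted p = 0.0302). Mup19 measured 1244, 66.2, 530 and 668 CPM against 4.62, 2.04, 0.0168 and 0.352 CPM, a log2 fold change of -8.46 ± 1.56 (adjusted p = 0.0185). Mineral oil library 2 was the lowest of its group for Mup19 by a wide margin, yet above all CCl4 libraries. Mup7, Mup11, Mup14, Mup16, Mup17, Mup21 and Mup22 also stood among the 15 largest decreases, with log2 fold changes between -7.39 (Mup17) and -3.27 (Mup21). Between 1 (without CCl4 library 2) and 16 (without mineral oil library 3) members were called with a library left out. Mup genes are near-identical copies, so reads may be split between them and the single genes are uncertain.

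The other 7 of the 15 largest decreases were no lipocalins. Slc1a2, a glutamate transporter, measured 58.0, 43.3, 25.1 and 215 CPM with mineral oil and 1.12, 1.3, 0.538 and 0.392 CPM with CCl4, a log2 fold change of -6.66 ± 1.02 (adjusted p = 0.00991). Susd4, an inhibitor of complement, measured 26.9, 16.3, 30.6 and 55.2 CPM against 0.292, 0.521, 0.370 and 1.58 CPM, a log2 fold change of -5.53 ± 0.82 (adjusted p = 0.00874). Oat, ornithine aminotransferase, measured 422, 314, 230 and 855 CPM against 39.0, 35, 23.0 and 25.8 CPM, a log2 fold change of -3.89 ± 0.62 (adjusted p = 0.0107). In all of them the CCl4 libraries clustered at a low level. Cyp7b1, the oxysterol and steroid 7-alpha-hydroxylase, measured 304, 143, 194 and 413 CPM against 10.3, 15, 30.7 and 17.6 CPM (-3.84 ± 0.58, adjusted p = 0.00944). Hsd3b5, a steroid reductase, measured 91.2, 93.8, 35.1 and 261 CPM against 0.660, 1.84, 7.31 and 10.7 CPM (-4.55 ± 1.06, adjusted p = 0.0376). A fatty acid hydroxylase with a near-identical copy, Cyp4a12b, had a log2 fold change of -3.60 ± 0.54 (adjusted p = 0.00944). The antisense transcript Hectd2os had -3.63 ± 0.93 (adjusted p = 0.0468), which is uncertain because the use of strand is not given in the sources used here. Slc1a2, Susd4, Oat, Cyp7b1 and Cyp4a12b remained called with any 1 library left out, at adjusted p of 0.0467 or less, and Hsd3b5 in 2 of the 8 fits.

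UDP-glucuronosyl- and sulfotransferases attach sugar or sulfate to drugs, bile acids and steroids. Of 32 tested, 12 were called lower and none higher (37.5% called against 4.15% of all genes). The median relative to that of all genes was -0.98. Sult2a8, a bile acid sulfotransferase, measured 258, 237, 204 and 568 CPM with mineral oil and 21.3, 38.2, 53.5 and 47.0 CPM with CCl4, a log2 fold change of -2.99 ± 0.38 (adjusted p = 0.0048). Ugt2b1 measured 405, 399, 363 and 543 CPM against 43.5, 81.0, 106 and 93.9 CPM, a log2 fold change of -2.40 ± 0.29 (adjusted p = 0.0048). Neither gene had a CCl4 library near a mineral oil library. Sult2a7 (-2.69 ± 0.44, adjusted p = 0.0112) and Ugt2b5 (-1.33 ± 0.22, adjusted p = 0.0112) followed, while Ugt1a1, the bilirubin enzyme, was not called (-1.3 ± 0.36, adjusted p = 0.0570). At least 6 members were called in every fit with a library left out, the lowest without CCl4 library 1. Ugt2b and Sult2a members are close copies and may share reads.

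Enzymes that activate and cleave fatty acids were mostly lower among called genes. Of 55 acyl-CoA thioesterases and synthetases, 14 were called lower and 1 higher (27.3% called against 4.15% of all genes). Baat, which joins bile acids to taurine and glycine, measured 201, 210, 204 and 223 CPM with mineral oil and 82.4, 74.7, 96.8 and 97.7 CPM with CCl4. Both groups were tight, and the log2 fold change was -1.25 ± 0.18 (adjusted p = 0.00874). Slc27a1, a fatty acid carrier best known from muscle and fat, measured 5.26, 6.27, 3.51 and 5.36 CPM against 17.5, 31.7, 30 and 18.4 CPM, a log2 fold change of 2.26 ± 0.33 (adjusted p = 0.00874). Its relative Slc27a5, the bile acid ligase of hepatocytes, went the other way (-1.54 ± 0.29, adjusted p = 0.0201), as did the thiolase Acat3 (-1.38 ± 0.25, adjusted p = 0.0172). The abundant synthetase Acsl1 was not called (-0.58 ± 0.31, adjusted p = 0.267). Of the fatty acid binding proteins, Fabp3, the heart form, was called higher (4.52 ± 0.75, adjusted p = 0.0124). Fabp1, the liver form, was not called (-0.54 ± 0.39, adjusted p = 0.406). Of 75 glycerolipid acyltransferases and esterases, 8 were called lower, among them the carboxylesterases Ces3a (-1.53 ± 0.28, adjusted p = 0.0174) and Ces3b (-2.71 ± 0.46, adjusted p = 0.0133), and 3 higher. Called members made up 14.7% of that list.

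**Figure D5:**
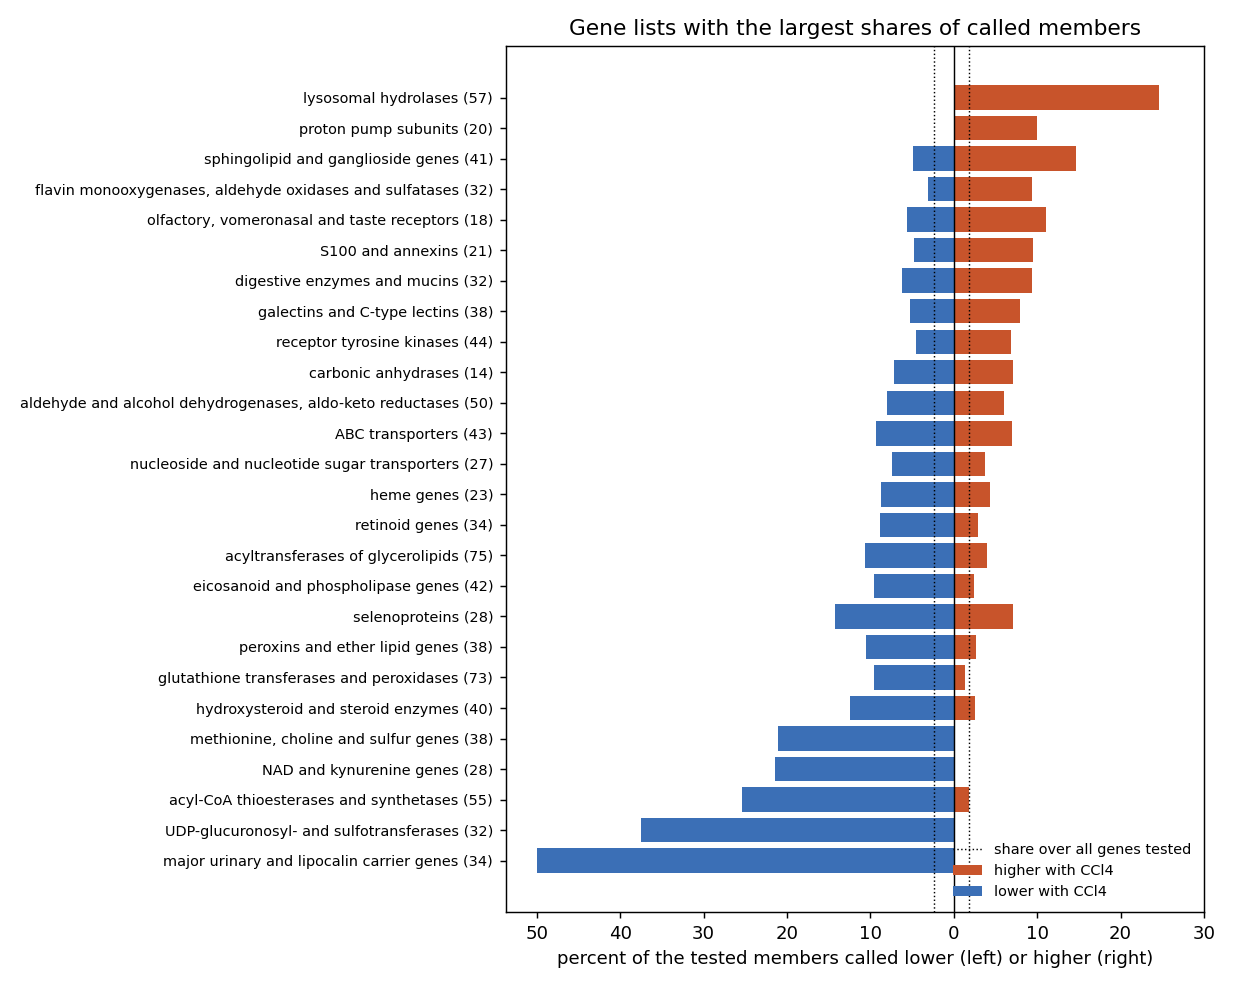
Percent of the tested members called lower (to the left) or higher (to the right) with CCl4 for the 26 lists with the largest shares called among those described, with the number tested in brackets. Dotted lines mark the shares over all genes tested, 2.38% lower and 1.77% higher; lysosomal hydrolases stand furthest on the higher side and major urinary and lipocalin carriers on the lower side.

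Called genes of the methionine and kynurenine pathways were lower with CCl4. Of 38 methionine, choline and sulfur genes, 8 were called lower and none higher, with a median of -0.59 relative to that of all genes (21.1% called against 4.15%). Hepatocyte markers moved in the same direction over these libraries, with a median of -0.84 relative to all genes, and their part in this and the other decreases of hepatocyte enzymes was not tested. Gnmt, glycine N-methyltransferase, which uses up surplus methyl groups, measured 1102, 1036, 896 and 1746 CPM with mineral oil and 268, 257, 315 and 428 CPM with CCl4 (-1.91 ± 0.30, adjusted p = 0.0102). Cth, which makes cysteine from cystathionine, measured 349, 487, 332 and 360 CPM against 108, 115, 130 and 174 CPM (-1.54 ± 0.27, adjusted p = 0.0158). Each CCl4 library lay below each mineral oil library for both. Ahcy (-1.26 ± 0.25, adjusted p = 0.0229) and the folate enzyme Aldh1l1 (-1.62 ± 0.34, adjusted p = 0.0251) were also called, whereas Bhmt was not, with CCl4 libraries from 263 to 2482 CPM (-1.47 ± 0.59, adjusted p = 0.153). The mitochondrial relative of Aldh1l1, Aldh1l2, rose from 0.277, 0.889, 0.312 and 0.235 CPM to 34.5, 14.7, 15.1 and 1.77 CPM (5.26 ± 0.79, adjusted p = 0.00944). Of 28 NAD and kynurenine genes, 6 were called lower and none higher (21.4% called). These were led by Aadat (-1.63 ± 0.30, adjusted p = 0.0192), Aox3 (-1.60 ± 0.33, adjusted p = 0.0259) and Haao (-1.31 ± 0.29, adjusted p = 0.0319). Tdo2, the first enzyme of tryptophan breakdown, was not called (-1.12 ± 0.34, adjusted p = 0.0768). Without CCl4 library 1, 1 methionine gene and no kynurenine gene was called.

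Gpx1 and Gpx3, enzymes that use glutathione to remove peroxides, moved in opposite directions. Gpx1, the intracellular glutathione peroxidase, measured 2239, 1649, 1433 and 1616 CPM with mineral oil and 680, 661, 705 and 720 CPM with CCl4, a log2 fold change of -1.33 ± 0.24 (adjusted p = 0.0174). Gpx3, the secreted form, measured 3.11, 1.81, 2.53 and 0.170 CPM against 33.3, 28.7, 25.1 and 19.9 CPM (3.81 ± 0.87, adjusted p = 0.0355). Neither gene had overlapping groups. Of 73 glutathione and peroxide genes, 7 were called lower, including Mgst1 (-1.26 ± 0.25, adjusted p = 0.0226), and Gpx3 alone was called higher. In the selenoprotein list of 28, Selenbp2, a selenium-binding protein that is no selenoprotein itself, measured 1156, 487, 809 and 1530 CPM against 33.3, 109, 121 and 162 CPM (-3.23 ± 0.53, adjusted p = 0.0112). Of the rest of that list, Gpx3 and the deiodinase Dio2 were called higher, and Gpx1, Sepsecs and Selenbp1 lower. Of 38 peroxins and ether lipid genes, 4 were called lower, led by Phyh (-1.19 ± 0.23, adjusted p = 0.0227), and the peroxisomal transporter Abcd2 was called higher (3.10 ± 0.77, adjusted p = 0.0422). Among 37 autophagy genes, Atg2a (-0.76 ± 0.13, adjusted p = 0.0124), Wipi2 (-0.58 ± 0.13, adjusted p = 0.0317) and Rb1cc1 (-0.47 ± 0.11, adjusted p = 0.0374) were called lower and none higher. Called members made up 21.4% of the selenoprotein list, 13.2% of the peroxins and ether lipid genes and 8.1% of the autophagy genes. Over all genes tested 4.15% were called, 2.38% lower and 1.77% higher, which is also the background for the 73 glutathione and peroxide genes.

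Steroid, retinoid and eicosanoid enzymes had 15% (steroid), 11.8% and 11.9% of their members called, against 4.15% of all genes. The share was 16.3% for ABC transporters and 11.4% for receptor tyrosine kinases. Of 40 hydroxysteroid and steroid enzymes, 5 were called lower, including Srd5a1, steroid 5-alpha-reductase (-1.79 ± 0.31, adjusted p = 0.0150), and Akr1c18, a progesterone-degrading reductase, was called higher (5.15 ± 1.10, adjusted p = 0.0297), at 0.932, 7.46, 6.0 and 30.9 CPM with CCl4. Of 34 retinoid genes, Rdh16 (-2.31 ± 0.42, adjusted p = 0.0180), Rarres2 and Rdh7 were called lower and Aldh1a2 higher. Of 42 eicosanoid and phospholipase genes, 4 were called lower, led by the epoxide hydrolase Ephx2 (-1.26 ± 0.25, adjusted p = 0.0229), and Hpgds, prostaglandin D synthase, was called higher (4.37 ± 1.05, adjusted p = 0.0404). Among 43 ABC transporters, the sterol exporters Abcg5 and Abcg8 and the phospholipid exporter Abcb4 were called lower with Abca6, and Abcc4, Abcd2 and Abca9 higher. The bile salt exporter Abcb11 did not pass the test (-1.05 ± 0.38, adjusted p = 0.119). Of 44 receptor tyrosine kinases, Mertk, a receptor for dying cells, was called higher (2.29 ± 0.52, adjusted p = 0.0359) with Ephb1 and Ephb6. Egfr was called lower, and so was Met, the receptor of hepatocyte growth factor (-0.71 ± 0.17, adjusted p = 0.0404).

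Several large families held no called gene, which for lists of this size can lie close to the share over all genes, 4.15%. Of 108 lists, 33 had 20 or more tested members and at most 1 called, and 14 of these had none. No member of the 86 cytosolic ribosomal proteins, 78 mitochondrial ribosomal proteins, 48 proteasome subunits, 50 DEAD and DEAH box helicases, 80 DNAJ and heat shock proteins, 61 DNA repair genes or 55 histone genes was called by edgeR. At an unadjusted p under 0.05 those lists held 34, 7, 5, 6, 9, 7 and 4 members, and DESeq2 called 16, 2, 1, 0, 1, 3 and 1. Over all genes tested 24.7% had an unadjusted p under 0.05 and DESeq2 called 13.7%, so the cytosolic ribosomal proteins exceeded both shares. All 34 cytosolic ribosomal proteins were on the higher side, and the list's median was 0.37 above that of all genes. With limma on log2(TPM + 1), 72 of the 86 were called higher. That fit called 12.6% of all genes, 93.7% of its calls were higher, and the median log2 fold change of all genes was 0.31. Among lists of regulators, none of 62 forkhead, SOX, KLF and GATA factors, 40 nuclear receptors, 57 RAS family genes, 39 G proteins and RGS proteins or 26 Notch and Hedgehog genes was called by edgeR. The unadjusted counts were 13, 8, 11, 11 and 2, and DESeq2 called 6, 2, 4, 7 and 1. By these counts the G proteins and RGS proteins lay only slightly above the shares over all genes, too little to read as a result about them. The 31 lists that met neither criterion had between 0.0% and 6.1% of their members called.

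Some called genes were neighbours. With genes placed in the order of an annotation on GRCm38 (another build, used for order only), 11 runs of 3 or more consecutive tested genes were called in 1 direction, 9 of them lower. They held 38 genes, 5.1% of the 746. The longest were 2 runs of 5 on chromosome 4, Gm13773, Mup10, Mup11, Mup12 and Mup22, and Mup19, Gm13775, Mup-ps16, Mup20 and Mup3. A run of 4 on chromosome 5 held Ugt2b35, Gm18635, Ugt2b36 and Ugt2b5. Runs of 3 that fell were Cyp2d10, Cyp2d9 and Cyp2d12 on chromosome 15, Mup16, Mup-ps13 and Mup17 on chromosome 4, Sult2a8, Sult2a7 and Obox4-ps3 and also Acsm5, Acsm2 and Acsm1 on chromosome 7, and Ces3a, Ces3b and Ces4a on chromosome 8. These runs hold families of tandem copies, in which reads can be shared, though Obox4-ps3 is no copy of the Sult2a genes beside it. A run without such copies was Capn8, Susd4 and Tlr5 on chromosome 1, a calpain protease, the complement inhibitor and the flagellin receptor, with log2 fold changes from -5.53 to -1.49. Tlr5 measured 4.72, 5.47, 2.75 and 4.92 CPM against 1.61, 1.68, 1.65 and 1.40 CPM (adjusted p = 0.00874). On the higher side, Lrp12, a lipoprotein receptor relative, stood with the noncoding AU022793 and Gm33251 on chromosome 15, and H2-M2 with Olfr110 and Olfr111 on chromosome 17. Lrp12 measured 5.09, 5.38, 6.05 and 3.70 CPM against 15.1, 29.9, 29.0 and 21.4 CPM (2.24 ± 0.33, adjusted p = 0.00874).

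The response was set beside that of WT hepatocytes, which share no library with it. In WT, 2250 genes (12.5%) were called. Of the 319 genes higher in ΔEGFR, 270 were also called higher in WT, which is 84.6% of the ΔEGFR list and 28.3% of the 955 in WT. Of the 427 lower, 352 were called lower in WT, 82.4% of the ΔEGFR list and 27.2% of the 1295 in WT. The sign in WT was the same for all 319 and for 426 of the 427. How often the sign was the same over all genes tested was not counted. The difference between the responses was tested as an interaction, and edgeR called no gene (568 at an unadjusted p under 0.05), while DESeq2 called 2. The larger number of calls in WT therefore does not show a smaller response in ΔEGFR for any gene named here. Cyp2e1, the enzyme that activates CCl4, had a log2 fold change of -1.33 ± 0.41 in ΔEGFR (adjusted p = 0.0815) and -3.38 ± 0.50 in WT (adjusted p = 0.00382). Cyp1a1, a target of the aryl hydrocarbon receptor, had 3.06 ± 0.49 (adjusted p = 0.0107) in ΔEGFR and 1.59 ± 0.50 (adjusted p = 0.0523) in WT. The difference between genotypes was 2.05 ± 0.61 for Cyp2e1 and 1.48 ± 0.68 for Cyp1a1, and edgeR's adjusted p of the interaction was 1.0 for both. Cyp2e1 and Cyp1a1 were chosen after their values were seen.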

How the data were processed

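RNA of 15 libraries of primary mouse hepatocytes was measured by RNA-seq. The authors deposited, per the file headers, an expected count and a TPM value for each of 56953 gene IDs in each library. Alignment with STAR 2.7.8a to GRCm39 and estimation of expected counts with RSEM 1.3.0 are given per the submitters' processing notes. Which annotation was used, and whether counting was stranded, is not given in the sources used here. A name table on GRCm38 gave symbols for 52029 IDs (91.4%), and promoter sequences are from RefSeq, GRCm38.p6.

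Expected counts were rounded to whole numbers. Genes passing edgeR's filter (minimum count 10, minimum total 15) were fitted with edgeR 4.0.16 in R 4.3.3, TMM factors and robust quasi-likelihood over all 15 libraries, which share 1 estimate of spread. The contrast was CCl4 minus mineral oil in ΔEGFR, with Benjamini-Hochberg adjustment over all genes and a threshold of 0.05. Each ± is the standard error of the log2 fold change. The biological coefficient of variation was 50.9%. Alternatives were other scaling, filters, DESeq2 1.42.0, limma 3.58.1 on log2(TPM + 1), a test against a fold of 1.5 and each library left out. Data were simulated from gene means pooled over all 15 libraries, with 17553 genes tested. Recovered were 14.6% of 48 genes changed by 2-fold, 57.1% of 49 by 4-fold, 58% of 50 by 8-fold and 79.6% of 49 by 16-fold. Few genes were changed in the simulation and no library was made to stand apart. These shares therefore need not hold for the real data.

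Named genes are the 15 largest called changes in each direction (mean log2 CPM of at least 2, groups not overlapping, no predicted genes or pseudogenes), up to 4 called members of a list with the lowest adjusted p and up to 2 uncalled members with the highest CPM, Egfr, markers, and runs of neighbours. Other genes named were chosen after their values were seen. The comparison, members and lists were chosen with earlier results of these data known. Replicate numbers follow the order of the records and pair nothing. Values of some genes are not reported here.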

Additional observations from a re-analysis of the deposited data

Results flagged for a closer look

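For 31 of 366 groups of 4 libraries examined on the log2 CPM scale (8.5%), 1 library lay far from the other 3, by the size of its gap relative to the range of the group. Chance does this in about 1 in 20 groups of continuous values. That rate does not apply to the groups, listed last below, in which 1 library held 1 or a few reads and the others none. Mineral oil library 4 was the low sample for 8 genes: Abcc4 (0.522 CPM), C3ar1 (0.17 CPM), Gpnmb (0.378 CPM), Hpgds (0.013 CPM), Lgals3 (0.796 CPM), Ltbp3 (0.391 CPM), Psap (479 CPM) and Syngr1 (0.0522 CPM). It was the high sample for Abcb11 (729 CPM), Ly6a (66.8 CPM) and Rdh16 (87.2 CPM). Its summed macrophage markers, 125 CPM, were the lowest of the 8 libraries, and the part of these cells in the values was not tested.

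Other libraries stood apart in fewer values. CCl4 library 2 was high for summed stellate cell markers (1043 CPM) and for Col1a2, 1 of them (94.5 CPM), and mineral oil library 3 for summed cholangiocyte markers (51.9 CPM) and Upk3b (0.381 CPM). CCl4 library 4 was high for Acsl1 (482 CPM) and Ugt1a1 (221 CPM) and low for Atg2a (49.2 CPM) and Upk3b (0.592 CPM). CCl4 library 3 was high for Acsm2 (0.689 CPM), Mup-ps13 (0.0168 CPM) and Siglec15 (0.252 CPM), and CCl4 library 1 was low for Krt20 (0.222 CPM). Mineral oil library 1 was high for Lamc3 (0.298 CPM). The remaining values come from groups in which 1 library held 1 or a few reads and the others none. In mineral oil library 2 these were Dio2 and Htr2b (0.0162 CPM each) and Gm33251 and Prss46 (0.00809 CPM each). Krt20 and St18 (0.0103 CPM each) were in mineral oil library 1 and Siglec15 (0.00693 CPM) in mineral oil library 3. Mup-ps13 (0.0168 CPM) was in CCl4 library 3, with 1 count.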

How the results depend on the processing

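The number of genes called was 746. Leaving out 1 ΔEGFR library gave between 75 and 972, with 75 without CCl4 library 2, 94 without mineral oil library 4, 101 without CCl4 library 1, 129 without CCl4 library 3, 182 without mineral oil library 2 and 289 without mineral oil library 1. Leaving out WT mineral oil library 1, an alternative chosen after seeing the data, gave 2145, of which 745 were among the 746. The count was 1180 with no scaling factor (84.5% higher, median of all genes 0.44), 470 with no filter on low counts, 1286 with only the 8 ΔEGFR libraries (54.3% higher) and 84 in the test against a fold of 1.5. DESeq2 called 2410 (54.8% higher), including all 746, and limma on log2(TPM + 1) called 2271 (93.7% higher, median of all genes 0.31), of which 390 were shared. Upper-quartile factors gave 590, of which 53.4% were higher, against 42.8% of the 746. For the difference between genotypes DESeq2 called 2 genes and edgeR 0. Of 2857 alternatives for 170 genes named, 2037 kept direction and side of the threshold, 785 kept direction without passing it, 29 newly passed it and 6 changed sign, all small: with limma, Acsl1 was 0.10, Fabp1 0.05, Rb1cc1 0.11 and Lamp1 0.28, Lamp1 was 0.19 with no scaling factor, and Ctsl was -0.04 without CCl4 library 1 (up to 0.27 without another library). The cause was not tested. Medians of the 44 lists with many calls stayed within 1 SD in 727 of 748 alternatives and changed sign in 17, in 7 lists. No paired analysis was possible because the labels carry no replicate numbers or animals. Counts of 3 or fewer in a group leave the size of those changes wide.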

Other observations

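Genes known to differ between the sexes in mouse liver were set out after their values were seen. All 8 libraries held reads of the Y-linked genes Ddx3y (25.8 to 62.4 CPM), Eif2s3y, Kdm5d and Uty, and Xist was at most 0.0913 CPM. Of 20 tested genes known to be higher in male mouse liver, which include several major urinary proteins, 15 were called lower with CCl4 by edgeR and none higher. All 20 had negative log2 fold changes, with a median of -2.85 in ΔEGFR and -3.09 in WT. Of 22 tested genes known to be higher in female liver, 3 were called higher (Cyp2a22, Abcd2 and Prom1) and none lower. For these, 16 log2 fold changes were positive, with a median of 0.88 in ΔEGFR and 0.61 in WT. Of 9 tested genes of growth hormone receptor signalling, STAT5 and their targets, Ghr and Igf1 were called lower and none higher, with a median of -1.43 in ΔEGFR and -1.39 in WT. Over all genes tested the median was -0.02 and 4.15% were called. No gene of these lists was called in the edgeR test of a difference between the genotypes.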
